A study of Mus musculus with 10 samples.

Results

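The genes described here come from families of monocarboxylate carriers in kidney cell membranes, or act on lactate and acetate inside the cell. Such carriers move lactate, pyruvate, acetate and ketone bodies. The 9 genes include the SLC16 family transporters Slc16a1, Slc16a6, Slc16a7 and Slc16a9 and the sodium-coupled transporters Slc5a8 and Slc5a12. The others are the mitochondrial acetate enzyme Acss1 and the lactate dehydrogenase subunits Ldha and Ldhb. They were chosen by name, as 9 of the 13837 genes in the table, with the difference between the genotypes already known. Their fold changes and p-values in that comparison are therefore given as a description and are not independent evidence. All 9 passed the filter on low values, as did 13197 genes in all.

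RNA was sequenced from whole kidneys of 10 mice aged 3 months, 1 library per mouse. Of these, 5 were wild type for Rragc (+/+) and 5 carried 1 knock-in allele of Rragc encoding the S74N substitution in RagC (KI/+). RagC is a Rag GTPase that recruits the growth-controlling kinase complex mTORC1 to the lysosome when amino acids are present, and the study asked what its mild activation does to organs. Per the study's methods, the allele was made by injecting Cas9, a guide RNA and a repair oligonucleotide into embryos, and it is carried in every cell type of the mouse, not only in the kidney. The labels name no treatment for either genotype, and they do not give the sex of the mice. Of the Y-linked marker genes, 4 were detected in all 10 kidneys, and 0 differed at an adjusted p under 0.05 by limma, edgeR or DESeq2 (1, Ddx3y, at an unadjusted p under 0.05 in limma). Xist, the other sex-linked marker looked up, was not among the 13837 genes.

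Within the SLC16 family (MCTs), the proton-linked transporters move a monocarboxylate together with a proton, in the direction the gradients set. Several need the partner proteins basigin or embigin to reach the membrane. Sodium-coupled transporters (SMCTs) of the SLC5 family use the sodium gradient to take lactate and pyruvate back from the urine at the apical membrane of the proximal tubule. Inside the cell, lactate dehydrogenase interconverts lactate and pyruvate as tetramers of the Ldha and Ldhb products, and acetyl-CoA synthetases turn acetate into acetyl-CoA, in mitochondria (Acss1) or in the cytosol and nucleus (Acss2).

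The promoters of 6 of the 9 genes could be matched in RefSeq (GRCm38.p6), each as 250 bases before and 50 bases after the transcription start, and Ldha had 2 such promoters. Slc16a6, Slc16a7 and Slc5a12 were not matched. Because mTORC1 acts on the MiT/TFE transcription factors, which bind E-boxes with the core CACGTG, that core was searched for. It reads the same on both strands. The stretches that follow are the 3 occurrences of the core (capitals) with their flanks, on the plus strand. The first lies 200 bases before the start of Slc16a1 (chr3:104638452-104638481). The others lie 145 bases (chr7:46845647-46845676) and 48 bases (chr7:46845744-46845773) before the start of Ldha.
Slc16a1: gcggcgccgggtCACGTGgcgggaaggggg
Ldha, distal: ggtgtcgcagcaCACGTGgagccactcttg
Ldha, proximal: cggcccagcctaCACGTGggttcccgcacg

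Only the site of Slc16a1 also matched the extended form CACGTGAC, searched on both strands (GTCACGTG on the other), which contains the core. Of 32851 promoters of the same length, 7.15% held the core and 2.25% the extended form, and of the 12659 promoters of genes tested here, 9.86% and 4.14%. Acss1, the called gene whose promoter was matched, held neither form, and nor did the promoters of Ldhb, Slc16a9, Slc5a8 and the other promoter of Ldha. The 250 bases before the start of Acss1 (chr2:150668241-150668490, minus strand, 61.6% G or C) are given as the promoter of the gene with the second largest fall among the 9.
Acss1: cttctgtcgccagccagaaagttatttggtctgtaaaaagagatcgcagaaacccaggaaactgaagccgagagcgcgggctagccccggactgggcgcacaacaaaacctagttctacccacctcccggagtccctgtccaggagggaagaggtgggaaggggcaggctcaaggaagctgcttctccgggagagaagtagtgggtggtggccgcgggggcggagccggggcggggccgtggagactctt

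Values are normalized counts, that is, reads divided by the size factor of the library. Each transcript is read once, near its poly(A) tail, so counts do not depend on transcript length. Levels of different genes are compared on that basis, and differences between genes in capture or mapping of reads were not tested. Reads on genes numbered 6501552 to 7856363 in +/+ and 6872310 to 7996087 in KI/+ kidneys, and the 9 genes together took between 0.143% and 0.175% of them. Each of the 9 had at least 122 reads in every kidney. Of the kidney markers looked up, all 8 of the proximal tubule, 4 of the thick ascending limb, 3 of the distal convoluted tubule and 3 of podocytes were in the table. The 2 liver and 5 erythroid markers were in it as well, so presence there does not check the labelled tissue. Rragc itself had 285 ± 42.3 (SD, n = 5) normalized counts in +/+ and 216 ± 23.6 (SD, n = 5) in KI/+ kidneys (log2 fold change -0.40, adjusted p = 0.0678 from limma). Its 3′ count does not tell the edited allele from the wild-type one, so it checks no label. Sorted by number, the library codes form a first run of 3 mice (2 +/+, replicates 1 and 2, and 1 KI/+, replicate 1) and, after a gap, a second run of 7 mice (3 +/+ and 4 KI/+). What the runs stand for is not given in the sources used here.

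Of the 9 genes, 4 passed the test at an adjusted p under 0.05 (limma, adjusted over all 13197 genes): Slc16a6 was higher in KI/+ kidneys, and Slc16a7, Acss1 and Slc5a12 were lower. Among all genes tested, 3.69% passed, 1.67% higher and 2.02% lower. In the same 4 genes every KI/+ kidney lay beyond every +/+ kidney, which held for 5.001% of all genes. Since the genes were picked with this comparison known, nothing is read from their share. The median log2 fold change of the 9 was -0.17, against 0.00046 over all genes tested, and the median of the absolute log2 fold changes was 0.36 against 0.14. In whole tissue, fewer cells that express a gene and less RNA per cell cannot be told apart.

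**Figure D1:**
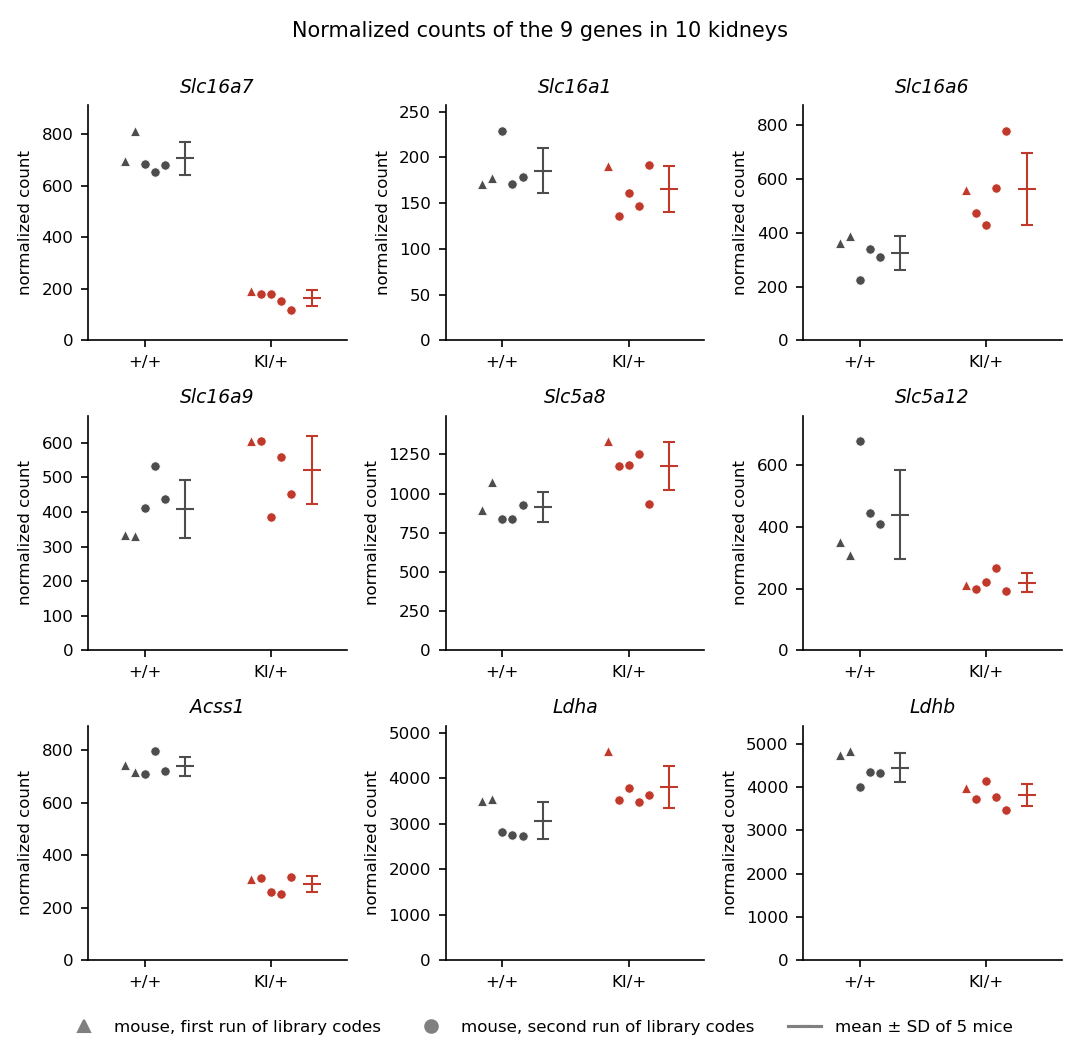
Normalized counts (vertical axis, linear from 0) of the 9 genes in each kidney, by genotype (+/+ grey, KI/+ red, 5 mice each). Points are mice, triangles the first run of library codes and circles the second run, and bars show mean ± SD. The genotypes do not overlap in Slc16a7, Slc16a6, Slc5a12 and Acss1, and overlap in the other 5 genes.

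Slc16a7 encodes MCT2, a proton-linked transporter with a high affinity for pyruvate and lactate. It had the largest fall of the 9 genes. The +/+ kidneys held 696, 813, 685, 654 and 678 normalized counts, and the KI/+ kidneys 192, 181, 180, 151 and 119. The lowest +/+ kidney was far above the highest KI/+ kidney, and within the KI/+ group replicate 5 was the lowest. The mean fell from 705 ± 62.2 to 164 ± 29.7 (SD, n = 5 each), which is 4.29-fold lower, with a log2 fold change of -2.11 (standard error 0.12, 95% interval -2.36 to -1.85, limma adjusted p = 7.56e-09). By p-value Slc16a7 ranked 3 among all genes tested, and by size of the fall 19. It was called in all 12 other settings and in all 10 fits that left out 1 mouse.

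None of the other 3 SLC16 transporters listed above was called lower, and Slc16a6 was called higher. Slc16a6 encodes MCT7, which has been linked to the export of ketone bodies. Its values were 364, 387, 225, 341 and 309 normalized counts in +/+ kidneys and 562, 473, 431, 568 and 780 in KI/+ kidneys. No KI/+ kidney was as low as any +/+ kidney, although +/+ replicate 2 and KI/+ replicate 3 came close. Its mean rose 1.73-fold, from 325 ± 63.2 to 563 ± 135 (SD, n = 5 each), with a log2 fold change of 0.78 (standard error 0.16, 95% interval 0.46 to 1.11, limma adjusted p = 0.00604). The call was made in 11 of 12 other settings and was lost in limma without a variance trend (adjusted p = 0.0561). Leaving out KI/+ replicate 5, the highest, left a difference of 0.66 on the log2 scale (limma adjusted p = 0.00997).

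Slc16a1 encodes MCT1, the widely expressed lactate transporter that travels with basigin. Its kidneys held 171, 178, 229, 170 and 178 normalized counts in +/+ and 191, 136, 161, 147 and 192 in KI/+ mice. The genotypes overlapped, with KI/+ replicates 2, 3 and 4 below every +/+ kidney and +/+ replicate 3 above every KI/+ kidney. The means were 185 ± 24.8 and 165 ± 25.3 (SD, n = 5 each), and the 95% interval of the log2 fold change ran from -0.43 to 0.09 (estimate -0.17, limma adjusted p = 0.593). A change of the size seen in Slc16a7 lies far outside that interval.

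Slc16a9 encodes MCT9, which is known as a carnitine transporter. Normalized counts of 332, 332, 411, 532 and 437.8 in +/+ kidneys stood against 606, 605, 385, 558 and 452 in KI/+ kidneys. KI/+ replicates 3 and 5 lay within the +/+ range, and +/+ replicates 3, 4 and 5 within the KI/+ range. The log2 fold change of 0.35 (95% interval 0.05 to 0.65) did not pass (limma adjusted p = 0.232), and it was 0.11 within the 7 mice of the second run of codes (limma adjusted p = 0.782).

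Within each kidney the balance of the 4 Slc16 genes was different. Slc16a7 gave between 38.5% and 47.6% of their summed reads in +/+ kidneys and between 7.69% and 15.5% in KI/+ kidneys, without overlap. There were 0.328 to 0.524 Slc16a6 reads per Slc16a7 read in +/+ kidneys and 2.40 to 6.57 in KI/+ kidneys. As both genes separated the genotypes, in opposite directions, this ratio could not overlap and adds nothing to their separate values. The sum of the 4 genes overlapped between genotypes, at 1624 ± 74.8 normalized counts in +/+ and 1414 ± 160 in KI/+ kidneys (SD, n = 5 each).

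The sodium-coupled pair is expressed in the proximal tubule, where Slc5a12 encodes the low-affinity SMCT2 and Slc5a8 the high-affinity SMCT1. Slc5a12 held 351, 309, 678, 443 and 409 normalized counts in +/+ kidneys and 212, 200, 223, 268 and 191 in KI/+ kidneys. The +/+ kidneys were more spread than the KI/+ kidneys, with replicate 3 the highest, but no value of one genotype reached the other. The mean fell 2.0-fold, from 437.96 ± 144 to 219 ± 30.1 (SD, n = 5 each), with a log2 fold change of -0.95 (standard error 0.16, 95% interval -1.30 to -0.61, limma adjusted p = 0.00177). Without +/+ replicate 3 the log2 fold change was -0.78 (limma adjusted p = 0.00155), and the call was made in all 12 other settings and all 10 fits that left out 1 mouse.

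Slc5a8 lay in the opposite direction. Its values were 898, 1077, 839, 837 and 927 normalized counts in +/+ kidneys and 1338, 1174, 1180, 1254 and 933 in KI/+ kidneys. KI/+ replicate 5 fell within the +/+ range, and the other 4 KI/+ kidneys were above every +/+ kidney. The log2 fold change of 0.36 (standard error 0.10, 95% interval 0.14 to 0.57) narrowly missed the threshold (limma adjusted p = 0.0578). It passed with DESeq2 (adjusted p = 0.0250), with the run of library codes as a covariate in limma (adjusted p = 0.0123), without +/+ replicate 2 (limma adjusted p = 0.0307) and without KI/+ replicate 5 (limma adjusted p = 0.00826).

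Taken per kidney, there were 2.29 ± 0.830 Slc5a8 reads for each Slc5a12 read in +/+ and 5.41 ± 0.674 in KI/+ mice (SD, n = 5 each). The ratio ran from 1.24 to 3.48 in +/+ and from 4.68 to 6.30 in KI/+ kidneys, without overlap. The sum of both genes overlapped, at 1354 ± 106 and 1395 ± 169 normalized counts (SD, n = 5 each).

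Of the 8 proximal tubule markers, 2 passed the test, in opposite directions. The share of all genes tested that passed, 3.69%, stands beside this and the marker counts below. Slc5a2, the glucose transporter of the early proximal tubule, was lower (1380 ± 83.3 against 731 ± 127 normalized counts, SD, n = 5 each, log2 fold change -0.93, limma adjusted p = 4.64e-05), and Slc22a6, an organic anion transporter, was higher (log2 fold change 0.52, limma adjusted p = 0.00105). The summed level of the 8 ran from 53287 to 58004 in +/+ and from 53130 to 65838 in KI/+ kidneys, and the part of Slc5a2-expressing cells in the values of Slc5a12 was not tested. Markers of distal segments also differed: 2 of 3 for the distal convoluted tubule were lower, and of 4 for the thick ascending limb 1 was lower and 1 higher. In the collecting duct, 1 of 4 intercalated cell markers was lower (Slc4a1, log2 fold change -0.59, limma adjusted p = 0.0137), and 0 of 4 principal cell markers passed by limma or edgeR. Of these 4, 2 (Aqp2 and Aqp3) passed by DESeq2 and had an unadjusted p under 0.05 in limma, and Aqp3 was higher in every KI/+ kidney than in any +/+ kidney. The part of these segments in the values of the 9 genes was not tested.

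**Figure D2:**
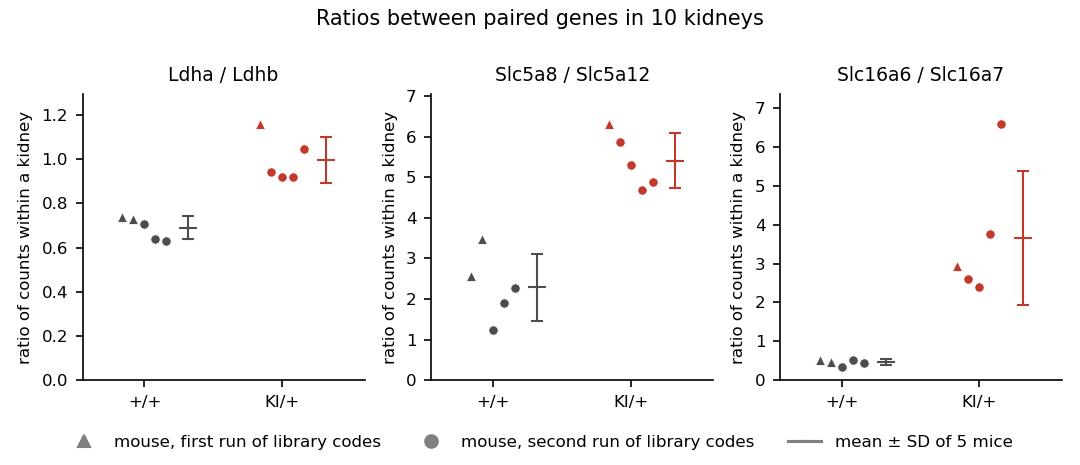
Reads of one gene per read of another within each kidney (vertical axis, linear from 0), for Ldha over Ldhb, Slc5a8 over Slc5a12 and Slc16a6 over Slc16a7, by genotype (5 mice each). Points are mice, with triangles for the first run of library codes and circles for the second run, and bars are mean ± SD. In all 3 panels every KI/+ kidney lies above every +/+ kidney. For Slc16a6 over Slc16a7 this follows from the genes themselves, which each separated the genotypes, in opposite directions.

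Acss1, the mitochondrial acetyl-CoA synthetase, fell in KI/+ kidneys with little spread between mice. The +/+ kidneys held 743, 719, 710, 799 and 722 normalized counts, and the KI/+ kidneys 311, 314, 262, 252 and 317. The 2 groups were separated by more than the whole range of either. The mean fell 2.54-fold, from 738 ± 35.8 to 291 ± 31.6 (SD, n = 5 each), with a log2 fold change of -1.34 (standard error 0.09, 95% interval -1.54 to -1.15, limma adjusted p = 5.14e-08). It ranked 6 by p-value and 64 by size of the fall among all genes, and was called in all 12 other settings and all 10 fits that left out 1 mouse.

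Its counterpart outside mitochondria, Acss2, had 927, 1135, 899, 1001 and 978 normalized counts in +/+ and 1075, 1220, 1306, 1193 and 789 in KI/+ kidneys. The genotypes overlapped, with KI/+ replicate 5 the lowest of all 10 kidneys and KI/+ replicate 1 below +/+ replicate 2, and the log2 fold change was 0.16 (95% interval -0.09 to 0.41, limma adjusted p = 0.584). There were 1.34 ± 0.140 Acss2 reads per Acss1 read in +/+ and 3.91 ± 1.01 in KI/+ kidneys (SD, n = 5 each), again without overlap. The summed reads of both were lower in every KI/+ kidney (1106 to 1568 normalized counts) than in any +/+ kidney (1609 to 1853).

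The lactate dehydrogenase genes were the most abundant of the 9, and neither passed the test over all mice. Ldha encodes the subunit that predominates in glycolytic tissue. Its values were 3506, 3535, 2821, 2759 and 2731 normalized counts in +/+ kidneys and 4607, 3517, 3796, 3476 and 3624 in KI/+ kidneys. The genotypes overlapped through the first 2 +/+ kidneys, which are those of the first run of codes. Over all mice the log2 fold change was 0.31 (standard error 0.10, 95% interval 0.10 to 0.52, limma adjusted p = 0.112).

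Within the second run, Ldha ran from 2731 to 2821 in 3 +/+ kidneys and from 3476 to 3796 in 4 KI/+ kidneys, without overlap. Its log2 fold change there was 0.38 (limma adjusted p = 0.0203), and with the run of library codes as a covariate over all 10 mice it was also 0.38 (limma adjusted p = 0.000993). The single KI/+ kidney of the first run held 4607, above the 3506 and 3535 of the +/+ kidneys of that run. The same covariate raised the number of genes called in the whole table from 487 to 832.

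Ldhb encodes the subunit that predominates in oxidative tissue such as heart and kidney cortex. Kidneys of +/+ mice held 4738, 4836, 3996, 4334 and 4328 normalized counts and those of KI/+ mice 3981, 3731, 4130, 3774 and 3472. KI/+ replicate 3 was above +/+ replicate 3, and the other KI/+ kidneys were below all +/+ kidneys. The log2 fold change of -0.22 (standard error 0.08, 95% interval -0.39 to -0.05) did not pass (limma adjusted p = 0.166), except after quantile normalization (-0.30, limma adjusted p = 0.00948).

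Read against each other, the 2 subunits separated the genotypes. The Ldha reads per Ldhb read were 0.740, 0.731, 0.706, 0.637 and 0.631 in +/+ kidneys and 1.157, 0.943, 0.919, 0.921 and 1.044 in KI/+ kidneys. Every KI/+ kidney was above every +/+ kidney, over all mice and within each run of library codes. The mean ratio was 0.689 ± 0.0519 in +/+ and 0.997 ± 0.103 in KI/+ kidneys (SD, n = 5 each), a 1.45-fold difference. The sum of both subunits overlapped, at 7517 ± 731 and 7621 ± 629 normalized counts (SD, n = 5 each). A ratio shows that the genes differed unequally and does not say which of them moved.

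The order of mean levels in +/+ kidneys was Ldhb, Ldha, Slc5a8, Acss1, Slc16a7, Slc5a12, Slc16a9, Slc16a6 and Slc16a1. Each gene overlapped its neighbour in this order, except Ldhb with Ldha, Ldha with Slc5a8 and Slc5a8 with Acss1. In KI/+ kidneys Ldha and Ldhb had nearly the same mean, at 3804 ± 465.7 and 3818 ± 252 normalized counts (SD, n = 5 each). Slc16a7 stood in the middle of the order in +/+ kidneys and last in KI/+ kidneys, where its values overlapped those of Slc16a1.

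The lists of related genes, which were also drawn up with earlier results of these data known, held 51 genes, of which 45 were in the table and 44 were tested. Of these, 6 passed, 5 higher and 1 lower in KI/+ kidneys. Among all genes tested, 3.69% passed, 1.67% higher and 2.02% lower. The median log2 fold change of the related genes was 0.14, against 0.00046 over all genes tested. Given how the lists were drawn up, nothing is read from these shares.

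Among 7 other SLC16 genes tested, 1 passed. Slc16a10, which encodes the aromatic amino acid transporter TAT1, held 164, 169, 168, 191 and 168 normalized counts in +/+ kidneys and 111, 125, 105, 101 and 103 in KI/+ kidneys, without overlap (log2 fold change -0.65, limma adjusted p = 0.00129). The other 6 had log2 fold changes between -0.06 and 0.38. Slc16a14 was in the table but under the filter. Slc16a3 and Slc16a8 were not analysed here.

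Of the 2 partner proteins, 0 passed by limma, edgeR or DESeq2, and 1, Emb, had an unadjusted p under 0.05 in limma. Bsg, basigin, the partner of MCT1, had 985 ± 55.1 and 1011 ± 109 normalized counts (SD, n = 5 each, log2 fold change 0.03, 95% interval -0.15 to 0.21, limma adjusted p = 0.907), and the sign of this small difference turned in 3 of the other fits. Emb, embigin, the usual partner of MCT2, had 128 ± 16.8 and 104 ± 16.5 (SD, n = 5 each, log2 fold change -0.29, limma adjusted p = 0.300).

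Of 20 other lactate and pyruvate genes tested, 1 passed. Pck1, the cytosolic enzyme that starts gluconeogenesis from oxaloacetate, held 2666, 2278, 1372, 2017 and 2150 normalized counts in +/+ and 7956, 7115, 2343, 4484 and 5448 in KI/+ kidneys. KI/+ replicate 3 lay inside the +/+ range and the other 4 far above it (log2 fold change 1.30, 95% interval 0.78 to 1.81, limma adjusted p = 0.00412), and the call was lost in limma with robust variances (adjusted p = 0.0912) and without a trend (adjusted p = 0.0556). The mitochondrial pyruvate carrier subunits gave log2 fold changes of 0.13 for Mpc1 (limma adjusted p = 0.623) and -0.01 for Mpc2 (limma adjusted p = 0.989), the latter with a sign that turned in 6 of the other fits. The remaining genes tested, among them the subunits of pyruvate dehydrogenase and its kinases Pdk1, Pdk2 and Pdk3, did not pass in the reported fit. Pdk4, Ldhc and Ldhal6b were not analysed here. Pdp1 did not overlap between genotypes, at 9.65 to 27.4 normalized counts in +/+ and 31.3 to 46.5 in KI/+ kidneys. Its log2 fold change was 0.82 (limma adjusted p = 0.0901). With the run of library codes as a covariate, Pdp2 (-0.41, limma adjusted p = 0.0156) and Pdha1 (0.24, limma adjusted p = 0.0488) passed.

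Of 10 other genes for acetate and related acyl-CoA synthesis, 1 passed. Acot12, a cytosolic thioesterase that releases acetate from acetyl-CoA, held 722, 735, 646, 691 and 660 normalized counts in +/+ and 1005, 916, 1020, 901 and 750 in KI/+ kidneys, without overlap. Its log2 fold change was 0.40 (limma adjusted p = 0.0159), and the call was lost without +/+ replicate 5 (adjusted p = 0.0563), without a trend (adjusted p = 0.0775) and within the second run (adjusted p = 0.0562).

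Of 5 transporters of di- and tricarboxylates tested, 3 passed, all higher in KI/+ kidneys, against 1.67% of all genes called higher. This list too was drawn up with earlier results known, and nothing is read from its share. Slc13a2, the apical succinate and citrate transporter of the proximal tubule, held 252, 182, 265, 250 and 364 normalized counts in +/+ and 405, 377, 517, 418 and 408 in KI/+ kidneys (log2 fold change 0.72, limma adjusted p = 0.00606, lost without a trend at 0.0505 and within the second run at 0.0617). Slc13a3, its basolateral relative, ran from 5470 to 6831 in +/+ and from 7512 to 9737 in KI/+ kidneys (log2 fold change 0.55, limma adjusted p = 0.00170). Slc25a10, the mitochondrial dicarboxylate carrier, ran from 532 to 644 and from 768 to 916 (log2 fold change 0.51, limma adjusted p = 0.00146). In all 3 genes the genotypes did not overlap.

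**Figure D3:**
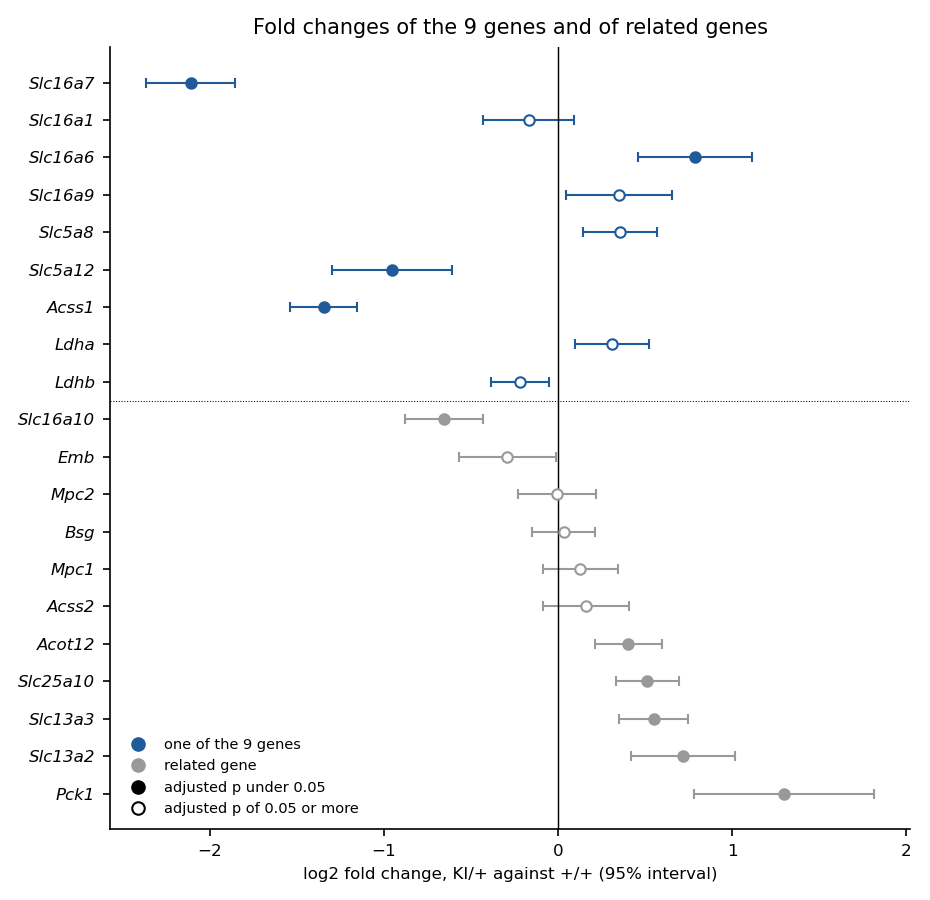
Log2 fold change of KI/+ against +/+ kidneys (horizontal axis, with 95% intervals from limma, 5 mice each) for the 9 genes (blue) and for related genes (grey). The related genes shown are those that passed, with Bsg, Emb, Mpc1, Mpc2 and Acss2. Filled points have an adjusted p under 0.05 and open points do not. Slc16a7 at -2.11, Acss1 at -1.34 and Slc5a12 at -0.95 lie on the lower side, and Pck1 at 1.30, Slc16a6 at 0.78 and Slc13a2 at 0.72 on the higher side.

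Transcripts of other tissues were looked at beside these values. Alb, whose protein is made chiefly in liver, ran from 39.7 to 95.4 normalized counts in +/+ and from 80.9 to 469 in KI/+ kidneys (log2 fold change 1.99, limma adjusted p = 0.00362). The other liver marker, Apoa2, did not pass (log2 fold change 0.73, limma adjusted p = 0.175). Of 5 erythroid markers, 1 passed, lower in KI/+ kidneys (log2 fold change -0.60) with overlap between genotypes, and 4 did not. Among all genes tested, 3.69% passed. The fat marker Fabp4 was highest in KI/+ replicates 5 and 1 (871 and 604 normalized counts, against 179 to 217 in +/+), while Adipoq, Plin1, Ucp1 and Cidec were not in the table, and nor were the 4 adrenal and 3 muscle markers. The part of such tissue in the values of the 9 genes was not tested. Alb was highest in KI/+ replicate 2. The 4 calls among the 9 genes were kept in all 10 fits that left out 1 mouse, those without KI/+ replicates 1, 2 and 5 included. Slc5a8 was also called without KI/+ replicate 5.

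**Figure D4:**
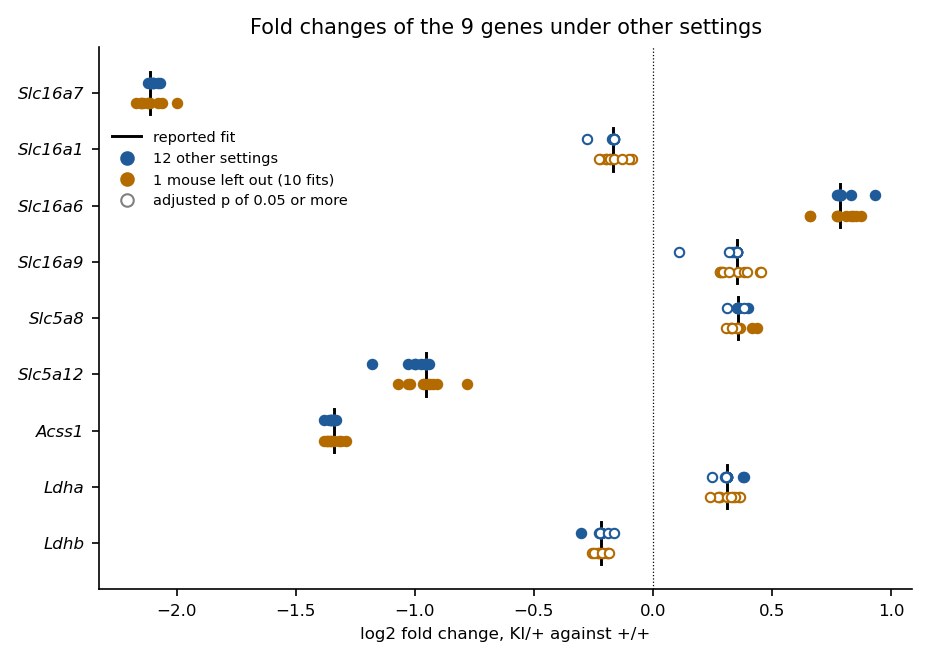
Log2 fold change of KI/+ against +/+ kidneys (horizontal axis) for the 9 genes in the reported fit (black line), in 12 other settings (blue) and in 10 fits that each left out 1 mouse (orange). Filled points have an adjusted p under 0.05. Slc16a7 stays between -2.17 and -2.0 and Acss1 between -1.38 and -1.29 in the fits that left out 1 mouse, and in no setting shown does any of the 9 genes cross 0.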

How the data were processed

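Kidney RNA of 5 +/+ and 5 KI/+ mice, grouped by the genotype label, was analysed. The authors made stranded QuantSeq 3′ libraries, aligned reads to GRCm39 with TopHat2 (2.0.10 in the submitters' processing notes, with Bowtie 1.0.0), allowing mismatches and multiple hits, and counted them with HTSeq 0.6.1, by strand, on GENCODE vM26. The deposited signal is, for each gene, the number of reads over the size factor of the library (0.8818 to 1.124). Multiplied back, 100% of the values were whole reads within 0.01. Each value column belonged to 1 mouse, and 0 columns stayed unmatched. The lowest gene mean was 5.64, and rarer genes were not analysed here.

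Log2(value + 1) was tested with limma 3.58.1 (trend, two-sided, Benjamini-Hochberg, threshold 0.05) in R 4.3.3, with no covariate, in genes with a value of at least 10 in at least 5 mice. A fold change on this scale understates that of low genes. The labels do not say that mice are littermates. The limma p-values set the difference between genotypes against the spread between these mice, moderated over all genes tested. The 20 pairs of libraries of the same genotype differed by more than counting noise, with chi-square per degree of freedom from 2.18 to 19.5. The alternatives tried were pseudocounts of 0.5 and 5, all genes without a filter, genes with a mean of 50 or more, TMM and quantile normalization, limma without trend or with robust variances, edgeR 4.0.16 and DESeq2 1.42.0 on recovered reads, the run of library codes as a covariate, the second run of codes alone, and leaving out each mouse. The fits were tested on simulated counts, drawn with the same dispersion for every gene and without an effect of the run of codes. That test does not cover runs, or genes that differ in spread.

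The members and lists were chosen with earlier results of these data known. Named were the 9 members, called genes of the related lists, Bsg, Emb, Mpc1, Mpc2, Acss2, Rragc, and the 3 genes most correlated with Slc16a7 and with Acss1. Marker genes, and Pdp1, Pdp2 and Pdha1 of the related lists, were named where a result turned on them, after their values were seen. Promoters came from RefSeq on GRCm38.p6, a different build from that of the counts, and no coordinates were converted. Slc16a1 contains 2 annotated intronic transcripts and Slc16a6 1 miRNA on the same strand in GENCODE vM21, a different release from that of the counts. How reads over them were counted, and any effect on the values of both genes, was not tested. Ratios within a kidney carry no test. Tables and figures used python 3.11.15, pandas 2.3.3 and matplotlib 3.10.9.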

Additional observations from a re-analysis of the deposited data

Results flagged for a closer look

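In 3 of 36 groups of 5 mice (9 genes and 9 ratios or sums, in each genotype), 1 mouse stood apart from the other 4 by a gap of more than 0.71 of the whole range, Dixon's 95% critical value, a gap that chance gives in about 1 in 20 groups. Slc16a1 in +/+ replicate 3 was at 229 normalized counts with the nearest mouse at 178 (gap over range 0.866). Slc16a7 in +/+ replicate 2 was at 813 with the nearest at 696 (0.738), which lies away from the KI/+ kidneys. Ldha in KI/+ replicate 1, the single KI/+ mouse of the first run of library codes, was at 4607 with the nearest at 3796 (0.717), and without that mouse Ldha did not pass (log2 fold change 0.24, limma adjusted p = 0.262).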

How the results depend on the processing

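Of the 9 genes, 3 to 6 were called over the 12 other settings: 3 in limma without a trend (Slc16a6 lost, adjusted p = 0.0561), 5 with DESeq2, 5 with quantile normalization, 5 within the second run of library codes, 6 with the run of codes as a covariate, and 4 in the others. Leaving out each mouse gave 4 to 5. Slc16a7, Acss1 and Slc5a12 were called in every fit, and no member changed sign. In the whole table, 487 genes were called, against 291 without a trend, 832 with the covariate, 480 with edgeR, 648 with DESeq2, and 295 to 4.7e+02 (rounded) without 1 mouse (295 without +/+ replicate 5, 310 without +/+ replicate 4). Of the related genes 6 were called, 3 without a trend, 4 within the second run and 9 with the covariate, and 5 to 7 without 1 mouse. Signs turned for Bsg with quantile normalization (-0.00284) and without +/+ replicate 3 or KI/+ replicate 5 (-0.00296 and -0.0174, within a range of -0.0174 to 0.0836 without 1 mouse), and for Mpc2 with the covariate (0.0499), within the second run (0.109) and without +/+ replicates 1 and 2 or KI/+ replicates 3 and 5 (0.0199, 0.0774, 0.0288 and 0.037, within a range of -0.0742 to 0.0774 without 1 mouse). These are log2 fold changes with adjusted p of at least 0.635. The cause of these shifts was not tested.

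No paired analysis was possible because the labels carry no replicate numbers. Replicates were numbered by accession. With 5 mice a genotype, the log2 fold changes of the 9 genes had standard errors of 0.08 to 0.16, which limits what could be called among smaller differences. The first run of codes holds 1 KI/+ mouse and could not be tested alone. Whole kidneys were sequenced, so segments of the tubule were not measured apart, and transcript levels say nothing of transport.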

Other observations

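After the mean of each genotype was subtracted, the 36 pairs among the 9 genes had Pearson correlations across the 10 mice from -0.68 (Slc16a6 with Slc5a12) to 0.84 (Slc16a7 with Slc5a8), 16 above 0 and 20 below, with a median of -0.075. Points share a library, its size factor and its run of codes, and the values are a description. Without the 2 mice farthest from the median of the gene named first, the correlation of Slc16a6 with Slc5a12 was -0.42 and that of Slc16a7 with Slc5a8 was 0.55.

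The genes whose remaining variation between mice was most like that of Slc16a7 were Acad10 (Pearson r = 0.97, Spearman rho = 0.85), Micu2 (0.95 and 0.88) and Tigd5 (0.94 and 0.81), picked as the highest of all 13197 genes over 10 mice. For Acss1 they were Mtmr12 (0.96 and 0.98), Satb1 (0.92 and 0.93) and Ttpal (0.92 and 0.94). None of these 6 genes was called between genotypes by limma, with adjusted p of at least 0.646.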
